A study of Mus musculus with 30 samples.

Results

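The comparison described here is loss of Rnf2 in XY primordial germ cells, the embryonic precursors of sperm, at the embryonic stage E11.5. It sets 3 arrays of the genotype Ring1+;Rnf2delta, called Rnf2delta below, against 3 arrays of the genotype Ring1+;Rnf2+, called control below. These 6 arrays were chosen by genotype, stage and sex, and they are 6 of the 30 mouse arrays of the series. Both genotypes keep Ring1, come from embryos of a mixed 129/Sv and C57BL6J background and carry the Oct4(deltaPE)-GFP transgene, whose fluorescence was used to sort germ cells from trypsin-dissociated gonads. The other 24 arrays hold Rnf2delta and control germ cells from XX embryos at E11.5 and from both sexes at E12.5, and control germ cells of both sexes at E13.5, with 3 arrays in each group. RNA of 500 sorted cells per sample was amplified before labelling. The labels do not name what deletes Rnf2 or in which cells it acts, and they do not give the number of embryos behind the 3 arrays of each group. The p-values therefore reflect the variation among these arrays alone, part or all of which may be technical.

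Rnf2 (also called Ring1b) and its paralogue Ring1 are the ubiquitin ligases of Polycomb repressive complex 1 (PRC1), which marks histone H2A and keeps developmental genes silent. Canonical PRC1 holds a CBX protein, which binds the histone mark made by PRC2, whereas variant PRC1 complexes are brought to DNA by other subunits, among them the E2F6, MGA and BCOR proteins. Germ cells reach the genital ridge, the future gonad, about the stage sampled here. By and around this stage they erase much of their DNA methylation, and they switch on germline genes. XX cells afterwards enter meiosis, and XY cells stop dividing and take the spermatogenic path.

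The sorted cells carried the markers of germ cells. Of 14 germ cell identity genes, 13 lay above the 75th percentile of all measured genes by mean signal on the 6 arrays, a rank that also depends on the probes. The mean log2 level of these 14 genes was 6.90 to 7.08 on the Rnf2delta arrays, against 6.69 to 6.96 on the control arrays (exact two-sided permutation test, p = 0.2). This list includes Sycp3 and Mael, which are among the risen genes described below. Its median difference, Rnf2delta minus control, was -0.04, and 6 of the 14 genes were above 0. Mean levels of Y-linked genes were 3.60 to 3.74 on the Rnf2delta arrays and 3.66 to 3.74 on the control arrays, above the 1.98 to 2.17 of the 6 XX arrays of that stage. Markers of the other cells that a gonad sort could hold mostly lay below the 75th percentile. Of 16 supporting cell markers 0 lay above that percentile, as did 0 of 8 erythroid and 0 of 13 macrophage markers. The exceptions were 2 of 15 interstitial and mesenchymal markers, 1 of 7 steroidogenic and 1 of 13 endothelial markers. The endothelial exception was Pecam1, which is also counted among the 14 germ cell identity genes. Above the median of all measured genes lay 8 of 16 supporting cell and 6 of 15 interstitial and mesenchymal markers. So did 3 of 13 endothelial, 3 of 13 macrophage, 1 of 7 steroidogenic and 0 of 8 erythroid markers. The purity of the sort was not tested. Mean levels of the erythroid markers were 2.02 to 2.16 in Rnf2delta and 2.18 to 2.33 in control, and those of the supporting cell markers were 2.86 to 3.12 in Rnf2delta and 2.78 to 3.14 in control. Array medians lay between 2.53 and 2.6 in Rnf2delta and between 2.56 and 2.59 in control. Relative log expression is a gene's level minus its median over all 30 arrays. Its spread on an array therefore holds differences of stage, sex and genotype as well as noise. The interquartile range of this measure was 0.248 to 0.259 in Rnf2delta and 0.274 to 0.283 in control (exact permutation test, p = 0.1, the smallest that 3 against 3 arrays allow). The part of these array properties in the results below was not tested.

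The Rnf2 transcript itself did not set the E11.5 XY genotypes apart. Its log2 level was 4.01, 4.11 and 4.57 on the Rnf2delta arrays and 4.79, 4.13 and 4.70 on the control arrays. The groups overlapped, and the difference was -0.31 ± 0.19 (SE; limma adjusted p = 0.80). In E12.5 XY cells the same probe set read -1.03 ± 0.19 (adjusted p = 0.0022). Whether this probe set reads the part of the gene that is deleted is not known here, although it was lower in Rnf2delta in E12.5 XY cells. Its overlap at E11.5 does not bear out the labelled loss, and how complete that loss was at E11.5 was not tested. Ring1 gave 2.96, 3.11 and 3.02 in Rnf2delta and 3.02, 3.24 and 3.23 in control, a difference of -0.13 ± 0.15 (adjusted p = 0.98). The median difference of Rnf2 and Ring1 together was -0.22 in E11.5 XY and -0.28 in E11.5 XX cells. At E12.5 it was -0.68 in XY and -0.36 in XX cells. For XX cells the value of the Rnf2 probe set alone is not given here.

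The difference between the genotypes was small in number of genes and almost entirely upward. Of 15180 genes tested, 109 (0.718%) passed an adjusted p of 0.05 in limma, of which 103 (0.679%) were higher in Rnf2delta and 6 (0.0395%) were lower. The median difference of all genes was -0.0017 on the log2 scale. The 103 higher genes rose by 1.48-fold to 3.81-fold, with a median of 1.95-fold, and 46 of them rose by at least 2-fold. Their median level was 4.37 in Rnf2delta and 3.31 in control, where the median of all genes in control was 3.40. In all 109 genes the 3 Rnf2delta arrays lay wholly above or wholly below the 3 control arrays, which was so for 15.6% of all genes tested. The count moved with single arrays. It was 50 genes without Rnf2delta replicate 3, 52 without control replicate 2 and 62 without control replicate 3, and 32 of the 109 genes (31 higher, 1 lower) passed under all 16 alternatives. Since these are bulk samples, fewer cells of a type and less RNA per cell cannot be told apart.

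**Figure D1:**
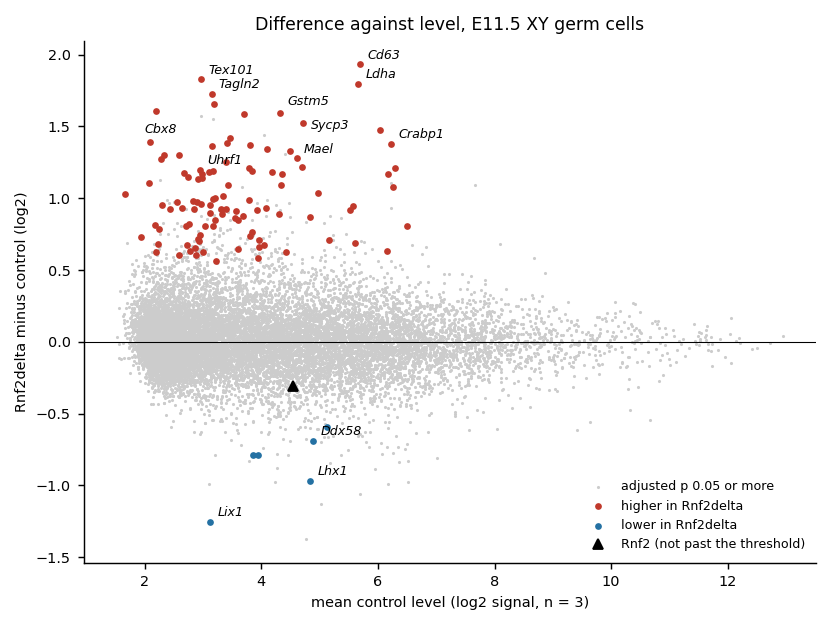
Each of the 15180 genes tested, with its mean log2 level on the 3 control arrays on the horizontal axis and the difference, Rnf2delta minus control, on the vertical axis. The 103 genes higher in Rnf2delta (red) lie over most of the lower and middle range of control levels, 6 genes are lower (blue), and Rnf2 (black triangle) lies at -0.31.

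The genes that rose furthest have varied roles. Cd63, a tetraspanin of late endosomes, had log2 levels of 7.44, 7.55 and 7.89 in Rnf2delta and 6.04, 5.51 and 5.55 in control, a rise of 1.93 ± 0.33 (SE; limma adjusted p = 0.0017) or 3.81-fold. Tex101, a glycoprotein of the germ cell surface, read 4.28, 4.60 and 5.52 in Rnf2delta and 2.97, 2.99 and 2.95 in control (1.83 ± 0.30, adjusted p = 0.0012). The 3 control arrays lay close together, while Rnf2delta replicate 3 stood above the other Rnf2delta arrays. Ldha, the muscle-type lactate dehydrogenase subunit, gave 7.85, 7.66 and 6.86 in Rnf2delta and 6.14, 5.77 and 5.07 in control (1.80 ± 0.25, adjusted p = 2.1e-04). Tagln2, an actin-binding protein, gave 4.99, 4.56 and 5.08 in Rnf2delta and 3.41, 2.74 and 3.29 in control (1.73 ± 0.25, adjusted p = 3.2e-04). In none of these 4 genes did the groups overlap, and each call held under every alternative and without any 1 array.

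Cbx8 and Gstm5 had the smallest adjusted p, 9.4e-06 each. Gstm5, a glutathione S-transferase, had levels of 5.93, 5.69 and 6.15 in Rnf2delta and 4.51, 4.37 and 4.10 in control, a rise of 1.60 ± 0.18 (SE). Ddah1, which breaks down methylated arginine, rose by 1.59 ± 0.22 with 5.01 to 5.54 in Rnf2delta and 3.47 to 3.92 in control. Ptprf, a receptor tyrosine phosphatase, rose by 1.37 ± 0.17 with 5.06 to 5.33 in Rnf2delta and 3.44 to 4.02 in control. Aff1, a scaffold of a transcription elongation complex, rose by 1.39 ± 0.25, and Ddx43, a DEAD-box RNA helicase of germ cells, by 1.39 ± 0.24; these calls, and those of Ddah1 and Ptprf, held under every alternative. With the mean of all its probe sets, the rise of Aff1 was 0.79 (adjusted p = 0.0025). Taf9b, a subunit of the general transcription machinery, read 4.36, 4.58 and 5.60 in Rnf2delta and 3.01, 3.39 and 3.16 in control (1.66 ± 0.32, adjusted p = 0.0056). Bicc1, an RNA-binding protein, read 4.48, 5.0 and 5.16 in Rnf2delta and 3.40, 3.34 and 3.63 in control (1.42 ± 0.27, adjusted p = 0.0047). Without Rnf2delta replicate 3, Taf9b and Bicc1 no longer passed, at adjusted p of 0.0893 and 0.0549. With the mean of all its probe sets, Bicc1 rose by 0.81 (adjusted p = 0.0016). Ldha and the glutathione S-transferases have close relatives in the genome, and whether their probes read those too was not tested.

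**Figure D2:**
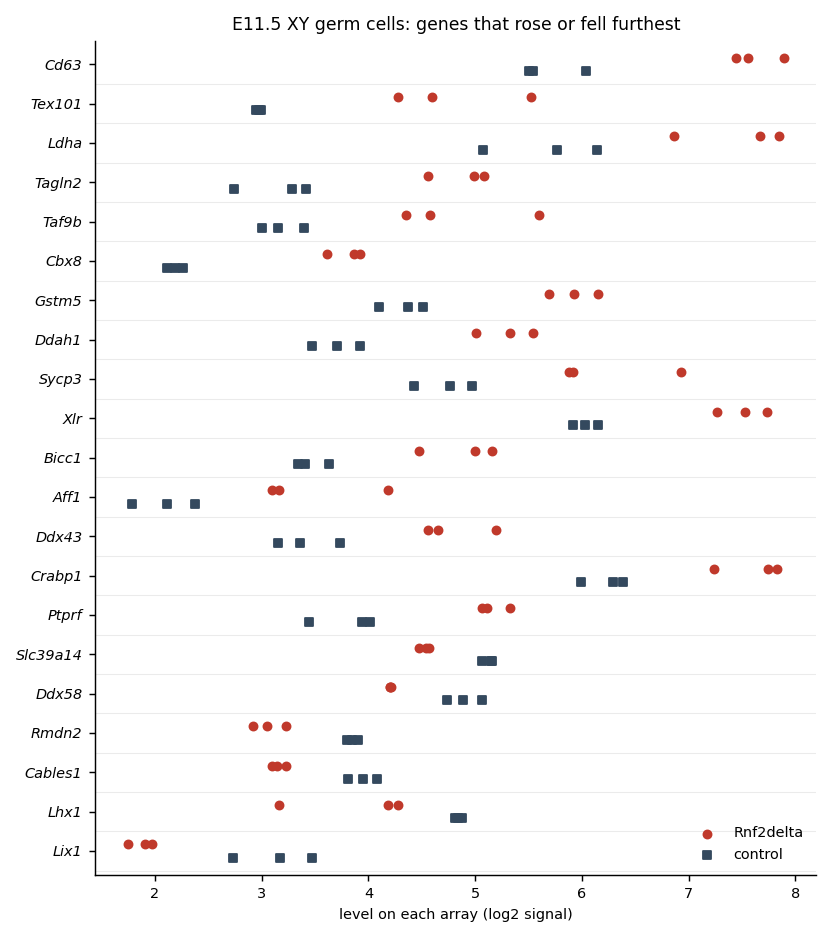
Log2 level on each of the 3 Rnf2delta arrays (red circles) and the 3 control arrays (dark squares) for the 15 genes with the largest rise and the 6 genes that fell. In no gene do the symbols of the 2 genotypes overlap, and the Rnf2delta symbols of Tex101, Taf9b, Sycp3 and Aff1 include 1 array well above the other 2.

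Among the subunits of PRC1 itself, 1 canonical and 1 variant gene rose. Cbx8, whose protein reads the PRC2 mark, had levels of 3.61, 3.86 and 3.92 in Rnf2delta and 2.27, 2.19 and 2.11 in control, a rise of 1.61 ± 0.18 (SE; limma adjusted p = 9.4e-06) or 3.05-fold. Its control levels lay below the array medians and its Rnf2delta levels above them. Bcor, the scaffold of a variant complex, had 5.06, 4.68 and 4.75 in Rnf2delta and 4.26, 3.70 and 3.79 in control (0.92 ± 0.17, adjusted p = 0.0034). Both calls held under every alternative. The remaining 10 of 11 canonical and 17 of 18 variant subunits did not pass, and the list medians were 0.10 and 0.19. Bmi1, a core canonical subunit, gave 5.39 to 5.76 in Rnf2delta and 4.56 to 5.01 in control (0.84 ± 0.24, adjusted p = 0.14). Its paralogue Pcgf2 ran the other way, with 4.15 to 4.64 in Rnf2delta and 4.71 to 4.97 in control (-0.49 ± 0.17, adjusted p = 0.24). Cbx2 differed by 0.44 ± 0.16 (adjusted p = 0.34). Yaf2 (0.73 ± 0.20, adjusted p = 0.10), E2f6 (0.50 ± 0.15, adjusted p = 0.16) and Mga (0.48 ± 0.18, adjusted p = 0.38), all subunits of variant complexes, also missed the threshold. With array weights Bmi1, Yaf2 and E2f6 passed. Of 11 PRC2 subunits 0 passed in either direction, 0 had arrays that did not overlap, and their differences ranged from -0.12 to 0.24; the largest was that of Rbbp7, a histone chaperone, at 0.24 ± 0.14.

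Genes of germline licensing and genome defence switch on as germ cells mature and include the piRNA pathway that silences transposons. They held more risen genes than any other list used here. The lists were chosen with earlier results of these data known, so this rank is no test of the gene class. Beside the counts of this and the later lists, 0.679% of all genes tested rose and 0.0395% fell. Of 26 measured members 7 rose and 0 fell, and the list median was 0.48 against -0.0017 for all genes. Besides Tex101 they were Mael, Xlr, Tdrd1, Slc25a31, Tdrd7 and Ddx25, the last 3 named after their values were seen. Mael, a piRNA pathway protein, had 5.43, 5.59 and 6.64 in Rnf2delta and 4.85, 4.06 and 4.90 in control (1.28 ± 0.26, limma adjusted p = 0.0083). Tdrd1, a Tudor-domain protein of the same pathway, had 3.44, 3.68 and 4.57 in Rnf2delta and 2.68, 2.37 and 2.74 in control (1.30 ± 0.27, adjusted p = 0.014). Xlr, an X-linked relative of Sycp3 from a multicopy family whose copies the probes may not tell apart, had 7.74, 7.27 and 7.53 in Rnf2delta and 5.92, 6.15 and 6.03 in control (1.48 ± 0.30, adjusted p = 0.0095). In each of these genes every Rnf2delta array was above every control array. The calls of Mael and Tdrd1 were lost without Rnf2delta replicate 3 or control replicate 2 (adjusted p up to 0.14 and 0.20), and that of Mael also in the fit of the 6 arrays alone (adjusted p = 0.085). Xlr was lost without Rnf2delta replicate 1 or 3 or control replicate 1 (adjusted p up to 0.057). Slc25a31, a germ cell ADP/ATP carrier, rose by 1.21 ± 0.26 and was lost without Rnf2delta replicate 3 or control replicate 2 or 3 (adjusted p up to 0.20). Tdrd7, a second Tudor-domain protein, rose by 0.89 ± 0.22, and Ddx25, a testis RNA helicase, by 0.85 ± 0.21; both lay just inside the threshold (adjusted p = 0.043 and 0.046), and Tdrd7 was lost with the replicate number as a block (adjusted p = 0.12). Both were also lost with no filter, with quantile normalization and without single arrays, which were any of the 6 for Ddx25 and any except Rnf2delta replicate 1 for Tdrd7 (adjusted p up to 0.36 and 0.24). With these 7, 12 members were higher without overlap and 1 was lower, where 8.74% of all genes were higher and 6.83% lower without overlap.

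Rnf2delta replicate 3 was often the highest array of its group in these genes. It stood above the other Rnf2delta arrays in 20 of the 26 licensing genes and in 27 of 36 meiotic genes, against 31.3% of all genes tested. Among the 103 risen genes it was highest in 57. Without it the median of the licensing list was 0.28 and 1 member passed, and that of the meiotic list was 0.15 with 0 members passing. The licensing count was 2 without control replicate 2 and 4 without control replicate 1 or control replicate 3. It was 5 to 10 under the alternatives that keep all 6 arrays. The direction of the licensing median was the same without any 1 array, at 0.28 to 0.57.

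Of the listed genes of meiotic entry and prophase I, 2 of 36 rose, 0 fell, and the median was 0.25. Sycp3, a component of the synaptonemal complex that holds paired chromosomes together, had 5.92, 5.88 and 6.93 in Rnf2delta and 4.76, 4.97 and 4.43 in control (1.52 ± 0.33, limma adjusted p = 0.016). Tex11, an X-linked gene needed for crossing over in male meiosis, had 3.44, 3.62 and 4.47 in Rnf2delta and 2.45, 2.96 and 2.59 in control (1.17 ± 0.23, adjusted p = 0.0070). Neither overlapped between the groups, and both calls were lost without Rnf2delta replicate 3 or control replicate 1, that of Sycp3 also without control replicate 3 (adjusted p up to 0.21 and 0.11). Sycp1 gave 3.25 to 3.95 in Rnf2delta and 2.36 to 3.15 in control (0.92 ± 0.28, adjusted p = 0.17), Sycp2 gave 0.73 ± 0.24 (adjusted p = 0.22) and Hormad2, of the chromosome axis, 0.60 ± 0.17 (adjusted p = 0.11). These 3 did not overlap and passed with array weights and without the 6 E12.5 XX arrays. The list leaves out Rnf212b, a meiotic crossover gene, which rose by 0.85 ± 0.19 (limma adjusted p = 0.017). Rnf212b was named after its values were seen, and how its call held under the alternatives is not given here.

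Stra8, the gatekeeper of meiotic entry, was low in both genotypes. Its levels were 2.03, 2.36 and 2.40 in Rnf2delta and 1.95, 2.18 and 2.00 in control, which overlapped (0.22 ± 0.35, limma adjusted p = 0.996). Rec8, a meiotic cohesin, differed by 0.30 ± 0.26 (adjusted p = 0.93), and Dmc1, a meiotic recombinase, by 0.65 ± 0.25 (adjusted p = 0.38).

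Retinoic acid, the signal that induces Stra8, has its own genes for synthesis, binding and reception, and 2 of 17 measured here rose with a list median of -0.01. Crabp1, which binds retinoic acid in the cytoplasm, had 7.74, 7.82 and 7.24 in Rnf2delta and 6.38, 5.99 and 6.29 in control (1.38 ± 0.23, limma adjusted p = 0.0014), and held under every alternative. Aldh1a2, a retinoic acid-making enzyme, had 4.59, 3.65 and 4.23 in Rnf2delta and 2.98, 2.84 and 3.14 in control (1.17 ± 0.26, adjusted p = 0.020). That call needed nearly all arrays: it was lost without each of them except Rnf2delta replicate 2 (adjusted p up to 0.15). Crabp2 (0.93 ± 0.28, adjusted p = 0.16) and Rbp4 (0.63 ± 0.17, adjusted p = 0.081), which bind retinoic acid and its precursor, did not pass. The arrays of Crabp2 did not overlap, and those of Rbp4 did. The receptor gene Rarb, itself a target of the signal, gave 2.12 to 2.41 in Rnf2delta and 2.02 to 2.16 in control (0.17 ± 0.12, adjusted p = 0.89).

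**Figure D3:**
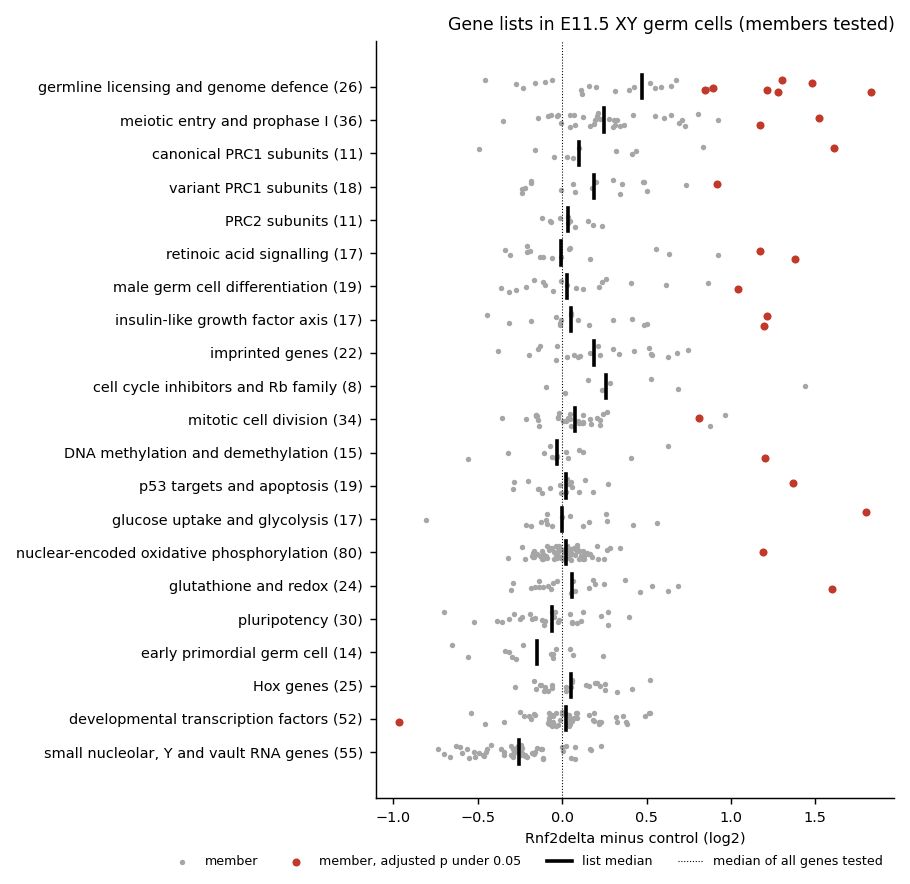
Log2 difference, Rnf2delta minus control, of each measured member of 21 gene lists, with the number of members in brackets. Points past the threshold are red, short black lines are list medians and the dotted line is the median of all genes; the licensing list has the highest median, 0.48, and the list of small RNA genes the lowest, -0.26.

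Promoter sequences of 6 risen genes are shown here because they carry 1 or both of the motifs counted below. RefSeq (GRCm38.p6) gave a window of 250 bases before to 50 bases after the start site for 83 of the 103 risen genes. The motifs searched on both strands were the E-box CACGTG, which reads the same on both, and the E2F-type GGCGGGA; where they meet they can share 1 letter. Each sequence below is the 250 bases before the start, 5′ to 3′ on the gene's strand, with the motifs of either strand in capitals.
Cbx8: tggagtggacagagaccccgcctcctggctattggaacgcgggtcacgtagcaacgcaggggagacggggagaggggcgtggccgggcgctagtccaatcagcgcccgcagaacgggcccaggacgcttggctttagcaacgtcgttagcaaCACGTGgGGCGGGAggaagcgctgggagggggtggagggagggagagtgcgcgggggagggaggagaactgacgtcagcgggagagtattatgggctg
Taf9b: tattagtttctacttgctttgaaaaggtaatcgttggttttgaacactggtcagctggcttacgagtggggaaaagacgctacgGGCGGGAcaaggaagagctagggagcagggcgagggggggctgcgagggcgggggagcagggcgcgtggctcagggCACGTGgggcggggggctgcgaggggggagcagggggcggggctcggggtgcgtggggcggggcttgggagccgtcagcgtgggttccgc
Mael: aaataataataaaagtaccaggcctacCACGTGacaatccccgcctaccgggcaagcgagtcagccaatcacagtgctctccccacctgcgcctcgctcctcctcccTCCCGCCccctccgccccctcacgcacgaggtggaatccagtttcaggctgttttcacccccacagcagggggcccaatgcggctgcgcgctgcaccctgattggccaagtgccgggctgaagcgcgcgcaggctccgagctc
Slc25a31: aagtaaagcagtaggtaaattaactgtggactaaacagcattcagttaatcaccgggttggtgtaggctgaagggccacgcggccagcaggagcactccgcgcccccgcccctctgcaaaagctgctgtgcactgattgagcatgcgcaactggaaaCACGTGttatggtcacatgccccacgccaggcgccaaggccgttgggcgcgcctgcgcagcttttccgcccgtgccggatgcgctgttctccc
Tdrd1: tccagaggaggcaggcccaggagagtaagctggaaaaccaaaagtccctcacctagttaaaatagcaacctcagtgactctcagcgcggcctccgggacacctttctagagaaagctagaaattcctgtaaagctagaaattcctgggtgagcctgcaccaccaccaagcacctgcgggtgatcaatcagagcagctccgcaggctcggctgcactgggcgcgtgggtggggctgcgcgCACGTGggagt
Sycp3: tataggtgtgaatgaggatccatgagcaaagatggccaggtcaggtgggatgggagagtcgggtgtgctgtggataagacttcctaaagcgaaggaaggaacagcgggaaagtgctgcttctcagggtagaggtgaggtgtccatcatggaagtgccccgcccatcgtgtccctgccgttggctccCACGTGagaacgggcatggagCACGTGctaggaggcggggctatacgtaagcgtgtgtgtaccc
Cbx8 (chr11:119040914-119041163, minus strand) has the E-box 98 bases before its start with the E2F-type letters next to it. Taf9b (chrX:106221159-106221408, minus strand) and Mael (chr1:166238745-166238994, minus strand) hold both motifs apart from each other. Slc25a31 (chr3:40708621-40708870, plus strand) and Tdrd1 (chr19:56825959-56826208, plus strand) hold 1 E-box each, and Sycp3 (chr10:88459337-88459586, plus strand) holds 2. Taf9b has 2 and Tdrd1 has 3 start windows, of which 1 is shown for each, and 2 of the 3 of Tdrd1 hold an E-box. The window of Slc25a31 also holds the E2F-type motif, though not wholly within the 250 bases shown. The E-box was in the window of 21 of 83 risen genes (25.3%), against 10.9% of 12002 tested genes and 8.09% of all 27025 genes with a window. The E2F-type motif was in 32 of 83 (38.6%), against 21.7% and 12.7%. Risen genes had a median of 21 CpG dinucleotides per window, against 18 for tested genes and 7 for all, so base composition differed too. Among the 94 risen genes outside the licensing and meiotic lists, 75 had a window and 16 of these (21.3%) held the E-box, whereas 11 of 23 measured licensing genes (47.8%) did. These counts describe letters in a window and were given no test.

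Genes of the earlier germ cell state did not pass. Of 30 pluripotency genes 0 rose and 0 fell, with a median of -0.06. Pou5f1 (Oct4), whose regulatory sequence drives the sorting reporter, had 9.53, 9.47 and 9.15 in Rnf2delta and 9.71, 9.42 and 9.50 in control (-0.16 ± 0.15, limma adjusted p = 0.95). Nanog differed by -0.12 ± 0.20 and Sox2 by 0.27 ± 0.17. The smallest p in the list belonged to Tfcp2l1, a factor of naive pluripotency, with 5.62, 4.99 and 4.67 in Rnf2delta and 5.62, 5.94 and 5.82 in control (-0.70 ± 0.25, adjusted p = 0.31). Of 14 early primordial germ cell genes 0 passed, 3 were above 0, and the median was -0.15. Rhox6, a homeobox gene of early germ cells, had 9.64, 9.25 and 8.34 in Rnf2delta and 9.63, 9.62 and 9.66 in control (-0.56 ± 0.21, adjusted p = 0.36), and Alpl, the alkaline phosphatase long used to stain these cells, differed by -0.65 ± 0.30 (adjusted p = 0.59). The groups overlapped in Alpl and in Rhox6, where Rnf2delta replicate 3 was the lowest array. The germ cell RNA-binding genes Ddx4 (0.67 ± 0.25, adjusted p = 0.34) and Dazl (0.43 ± 0.25, adjusted p = 0.79) did not pass.

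Of 19 genes of male germ cell differentiation 1 rose. Sohlh2, a transcription factor of spermatogonial differentiation, had 5.69, 5.95 and 6.37 in Rnf2delta and 4.90, 4.89 and 5.10 in control (1.04 ± 0.17, limma adjusted p = 0.0012), and held under every alternative. Mov10l1, the piRNA pathway helicase, had 6.13, 5.82 and 6.74 in Rnf2delta and 5.56, 5.33 and 5.20 in control but did not pass (0.87 ± 0.23, adjusted p = 0.081). Nanos2, which sets the male fate, was low, with 2.28 to 2.69 in Rnf2delta and 2.10 to 2.42 in control (0.22 ± 0.26).

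Developmental regulators, the best known targets of Polycomb, gave 1 call. Of 25 measured Hox genes 0 passed, their median was 0.05, and the largest difference was that of Hoxa10, which patterns the reproductive tract, at 0.52 ± 0.14 (limma adjusted p = 0.10). Of 52 developmental transcription factors 0 rose and 1 fell, with a median of 0.02. The gene that fell was Lhx1, and the next smallest p was that of Eomes, a T-box factor, with 2.22 to 2.57 in Rnf2delta and 1.93 to 1.97 in control (0.49 ± 0.13, adjusted p = 0.077). Cdkn2a, a cell cycle inhibitor repressed by PRC1 in many cells, had 4.16, 4.60 and 4.45 in Rnf2delta and 3.73, 3.72 and 3.69 in control (0.69 ± 0.20, adjusted p = 0.15), without overlap.

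Cell cycle inhibitors had a median of 0.26 over 8 measured genes, of which 0 passed. The largest difference was that of Cdkn1b, which encodes p27, with 5.57, 5.19 and 5.67 in Rnf2delta and 3.81, 4.19 and 4.12 in control (1.44 ± 0.43, limma adjusted p = 0.16). The groups did not overlap here, while the SE uses the spread within all 10 groups, and the gene passed under 5 alternatives, among them the fit of the 6 arrays alone (lowest adjusted p 0.0014). Among 34 genes of mitotic division 1 rose: Ccnd1, cyclin D1, with 3.67, 4.23 and 4.04 in Rnf2delta and 3.50, 3.11 and 2.90 in control (0.81 ± 0.16, adjusted p = 0.0077). Its call was lost with the 6 arrays alone and without any of Rnf2delta replicates 2 and 3 and control replicates 2 and 3 (adjusted p up to 0.10). Ccnd2 (0.96 ± 0.29) and Cdk2 (0.88 ± 0.25) did not pass.

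The insulin-like growth factor axis had 2 risen genes of 17, with a median of 0.05. Igfbp2, a secreted binding protein, had 5.91, 6.08 and 5.75 in Rnf2delta and 4.67, 4.71 and 4.73 in control (1.21 ± 0.22, limma adjusted p = 0.0026) and held under every alternative. Igf1r, the receptor, had 3.92, 4.27 and 4.91 in Rnf2delta and 3.25, 2.91 and 3.36 in control (1.19 ± 0.22, adjusted p = 0.0043), and was lost without Rnf2delta replicate 3 or control replicate 2 (adjusted p up to 0.077). Of 22 imprinted genes 0 passed, with a median of 0.19. The smallest p among them were those of Meg3, a maternally expressed non-coding RNA, at 0.68 ± 0.21, and Mest, at 0.74 ± 0.23 (adjusted p = 0.16 and 0.17).

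Single members passed in several further lists, where 0.679% of all genes tested rose. A single call in a list as long as 80 genes is near that share. Uhrf1, which recruits the maintenance DNA methyltransferase, had 4.02, 3.84 and 4.56 in Rnf2delta and 3.08, 2.78 and 2.97 in control (1.20 ± 0.25, limma adjusted p = 0.013), and was the only one of 15 DNA methylation genes to pass. The de novo methyltransferase genes Dnmt3b (0.62 ± 0.20, adjusted p = 0.21) and Dnmt3a (0.41 ± 0.14, adjusted p = 0.26) did not. Pmaip1, the p53-induced gene for Noxa, had 3.88, 4.85 and 4.81 in Rnf2delta and 3.13, 3.29 and 3.03 in control (1.37 ± 0.28, adjusted p = 0.0090), and was 1 of 19 p53 and apoptosis genes. Without Rnf2delta replicate 3 or control replicate 3 both calls were lost, that of Uhrf1 also without control replicate 2 and that of Pmaip1 also without Rnf2delta replicate 2 (adjusted p up to 0.16 and 0.094). Ldha was 1 of 17 glycolysis genes, with a list median of 0.00, and Gstm5 1 of 24 glutathione and redox genes, with 0.06. The latter list leaves out Gsto1, another glutathione S-transferase, which rose by 0.96 ± 0.20 (adjusted p = 0.014). How the call of Gsto1 held under the alternatives is not given here. Cox8c, a cytochrome oxidase subunit with a testis-enriched pattern, was 1 of 80 genes of oxidative phosphorylation (1.19 ± 0.22, adjusted p = 0.0043), and was lost without Rnf2delta replicate 3 or control replicate 3 (adjusted p up to 0.065). Among the markers of other cell types Krt18, a keratin, was 1 of 16 supporting cell markers to pass (1.13 ± 0.23, adjusted p = 0.0090, and 0.077 with the replicate number as a block); the mean of that list overlapped between the genotypes, as given above. It was also lost without Rnf2delta replicate 1 or 2 or control replicate 1 or 2. Of 21 immediate early and stress genes and 31 BMP and Nodal genes 0 passed.

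Small nucleolar, Y and vault RNA genes leaned downward without any of 55 passing. Their median was -0.26, 8 of 55 were above 0, and 10 were lower without overlap (6.83% of all genes were). Their mean level was 4.67 to 4.69 on the Rnf2delta arrays and 4.83 to 5.02 on the control arrays, a difference of -0.27 that does not overlap (exact permutation test, p = 0.1, the smallest possible). Snora21, a small nucleolar RNA that guides base modification of ribosomal RNA, was among the most shifted, with 4.42, 4.84 and 3.96 in Rnf2delta and 5.18, 5.18 and 4.85 in control (-0.66 ± 0.19, limma adjusted p = 0.14). The range of relative log expression given above also differed between the genotypes without overlap, and its part was not tested.

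Only 6 genes fell. Lix1 fell furthest, by 1.25 ± 0.17 on the log2 scale (SE; limma adjusted p = 1.7e-04), with 1.75, 1.97 and 1.91 in Rnf2delta and 3.17, 2.73 and 3.48 in control. Its Rnf2delta levels lay below the array medians, and it was the one fallen gene whose call held under every alternative. Lhx1, a LIM homeobox transcription factor, had 3.16, 4.18 and 4.28 in Rnf2delta and 4.87, 4.82 and 4.83 in control (-0.97 ± 0.22, adjusted p = 0.023). Rmdn2, a regulator of microtubule dynamics, had 2.92 to 3.23 in Rnf2delta and 3.80 to 3.90 in control (-0.79 ± 0.17, adjusted p = 0.014). Cables1, a kinase adaptor, had 3.10 to 3.23 in Rnf2delta and 3.81 to 4.08 in control (-0.79 ± 0.19, adjusted p = 0.046). Ddx58, the RNA sensor RIG-I, had 4.20 to 4.21 in Rnf2delta and 4.73 to 5.06 in control (-0.69 ± 0.17, adjusted p = 0.0498). Slc39a14, a zinc transporter, had 4.48 to 4.57 in Rnf2delta and 5.07 to 5.16 in control (-0.60 ± 0.14, adjusted p = 0.037). Cables1, Ddx58 and Slc39a14 were lost when any 1 of the 6 arrays was left out and with the replicate number as a block (adjusted p = 0.076, 0.067 and 0.14). Each of these 3 was also lost under 1 to 3 further alternatives that keep all arrays. Lhx1 was lost in the fit of the 6 arrays alone (adjusted p = 0.10), and without Rnf2delta replicate 1 or any 1 control array (adjusted p up to 0.22). Without Rnf2delta replicate 1 its difference was -0.61. Rmdn2 was lost without Rnf2delta replicate 2 or 3 or any 1 control array (adjusted p up to 0.13). With the mean of all its probe sets Rmdn2 differed by -0.39 (adjusted p = 0.34).

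Most genes that rose in E11.5 XY germ cells were also higher in Rnf2delta in the other sex or at the later stage, on arrays whose levels do not enter the E11.5 XY differences. All 30 arrays share 1 fit, so they do enter the spread behind each test. In E11.5 XX cells 84 genes passed (82 higher), in E12.5 XY cells 146 (128 higher) and in E12.5 XX cells 1502 (1174 higher), or 0.553%, 0.962% and 9.89% of genes. The higher genes alone were 0.54%, 0.843% and 7.73% of those tested. The E11.5 XY and E11.5 XX comparisons shared 45 higher genes, which is 43.7% of the E11.5 XY list and 54.9% of the E11.5 XX list. With E12.5 XY cells 63 were shared (61.2% of the E11.5 XY list and 49.2% of the other), and with E12.5 XX cells 77 (74.8% and 6.56%). Of the 103 risen genes, 27 were higher in all 3 other comparisons, 39 in exactly 2 of them, 26 in 1 and 11 in none, and 101 had a positive difference in all 4. Across all genes the differences in E11.5 XY cells correlated with those in the other comparisons at r = 0.539, 0.517 and 0.444, in the order given, where genes are not independent replicates.

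A total of 33 genes passed in all 3 other comparisons, each higher in Rnf2delta. The E11.5 XY arrays entered this choice through the shared spread and filter, though not through the differences. In E11.5 XY cells all 33 were higher without overlap, by 0.42 to 1.93, and 27 passed; 8.74% of all genes were higher without overlap and 0.679% passed. The choice was therefore repeated in a fit of the 24 other arrays, which gave 26 genes, all among the 33. Tested in a fit of the 6 E11.5 XY arrays alone, all 26 were higher without overlap, by 0.42 to 1.93, and 22 passed. In that fit 9.55% of genes were higher without overlap and 1.01% passed upward. Cd63 differed by 1.93 in E11.5 XY cells, 2.01 in E11.5 XX, 2.05 in E12.5 XY and 3.29 in E12.5 XX cells. Cbx8 gave 1.61, 1.27, 1.60 and 1.23, Gstm5 1.60, 1.61, 1.68 and 2.21, and Igfbp2 1.21, 1.26, 1.39 and 1.12 in the same order. The 6 genes that did not pass here were Tulp4, Nefh, Cdkn1c, En2, Cmip and Plbd2, 5 of them outside the rule for named genes and named after their values were seen. Cdkn1c, an imprinted cell cycle inhibitor, had 4.22, 4.47 and 4.39 in E11.5 XY Rnf2delta and 4.04, 3.77 and 3.70 in control (0.52 ± 0.17, limma adjusted p = 0.22). Without control replicate 2 the number passing was 17. One Rnf2delta array of E12.5 XY cells had a mean erythroid marker level of 3.64, above the 2.07 to 2.46 of all other arrays at E12.5 and E13.5.

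**Figure D4:**
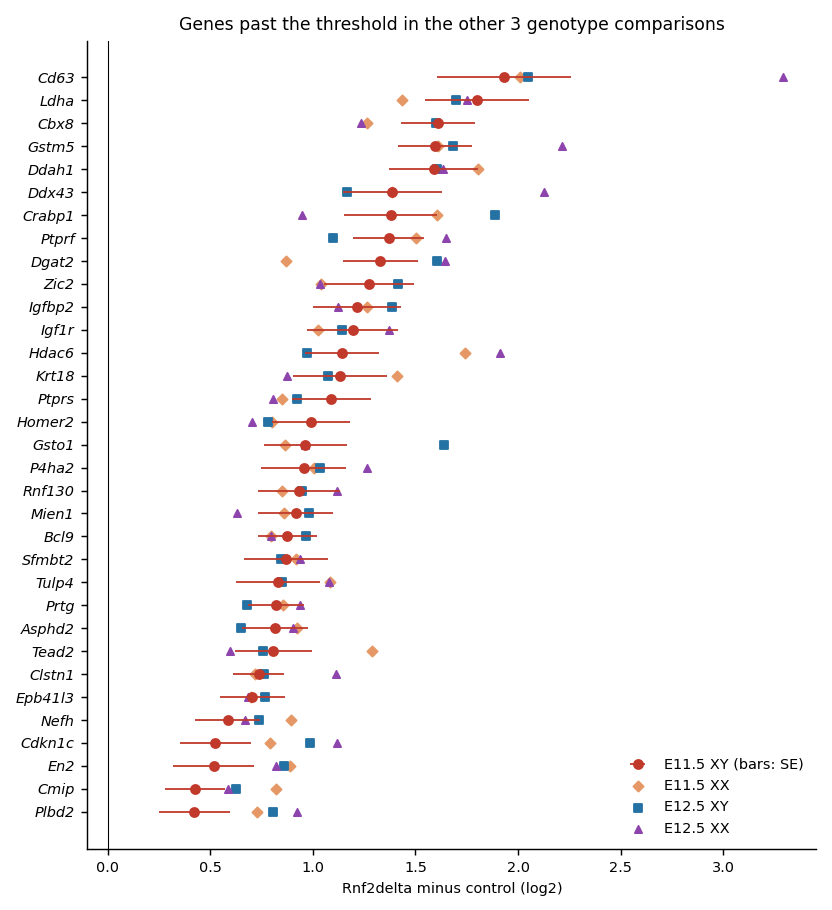
Log2 difference, Rnf2delta minus control, of the 33 genes past the threshold in the E11.5 XX, E12.5 XY and E12.5 XX comparisons. E11.5 XY values (red circles with SE bars) lie between 0.42 and 1.93, all above 0, and the other 3 comparisons are shown by orange diamonds, blue squares and purple triangles.

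Genes that passed in E11.5 XY cells and in none of the other comparisons were few. Of the rises they were Pmaip1, Uchl1, Fndc3c1, Mettl7a1, Cbln1, Hbegf, Igsf9, Zdhhc23, Vwa2, Epcam and Uso1, named after their values were seen except for Pmaip1, and of the falls Lix1, Rmdn2 and Cables1. With the replicate number as a block, Fndc3c1, Cbln1, Hbegf, Vwa2 and Uso1 no longer passed (adjusted p = 0.066, 0.061, 0.088, 0.077 and 0.079). The licensing list had 7 higher members here, 0 in E11.5 XX, 5 in E12.5 XY and 13 in E12.5 XX cells, with medians of 0.48, 0.21, 0.37 and 0.66. Tex101 gave 1.83 in E11.5 XY and 1.18 in E11.5 XX cells, and Mael 1.28 and 0.66. Such contrasts were tested by the interaction of genotype with sex at E11.5. In limma 0 of 15180 genes passed, with 269 (1.77%) at an unadjusted p under 0.05. Evenly spread p-values would put a share of 0.05 of the genes there, so this fit gave fewer small p-values than that. A count of 0 does not show that the effects are equal. The smallest p was that of Trim21, an antibody receptor and ubiquitin ligase, with 0.92 in E11.5 XY and -0.24 in E11.5 XX cells (difference 1.16 ± 0.23, adjusted p = 0.31). Lix1 had the next smallest, at -1.25 in E11.5 XY and -0.29 in E11.5 XX cells (-0.96 ± 0.24, unadjusted p = 4.4e-04). Under the alternatives 0 genes passed as well, with 225 to 558 at an unadjusted p under 0.05 (490 in the 12 compared arrays alone).

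The effect in XY cells was likewise not shown to differ between E11.5 and E12.5. In the interaction of genotype with stage 0 genes passed, with 361 (2.38%) at an unadjusted p under 0.05 in limma, again a share below 0.05. Under the alternatives 0 passed, with 298 to 717 at an unadjusted p under 0.05 (571 in the 12 compared arrays alone). The smallest p was that of Atmin, a transcription factor of the DNA damage response, with 0.53 at E12.5 and -0.40 at E11.5 (difference 0.93 ± 0.25, unadjusted p = 7.3e-04). Lix1 had the next smallest, at -0.38 at E12.5 and -1.25 at E11.5 (0.87 ± 0.24, unadjusted p = 0.0012). Tex101 was at 4.28 to 5.52 in E11.5 Rnf2delta and 2.95 to 2.99 in E11.5 control cells, and at 5.24 to 5.61 in E12.5 Rnf2delta and 2.36 to 2.71 in E12.5 control cells. Its stage difference, E12.5 minus E11.5, was 1.05 ± 0.42 (unadjusted p = 0.018). Mael reached 5.43 to 6.64 in E11.5 Rnf2delta cells, against 4.06 to 4.90 in E11.5 controls, 4.94 to 5.37 in E12.5 controls and 5.57 to 6.16 in E13.5 controls. The E11.5 Rnf2delta range of Mael thus overlapped that of E13.5 control XY cells and lay above that of E12.5 control XY cells. Cbx8 and Gstm5 had E11.5 Rnf2delta levels above every control XY array of any stage.

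**Figure D5:**
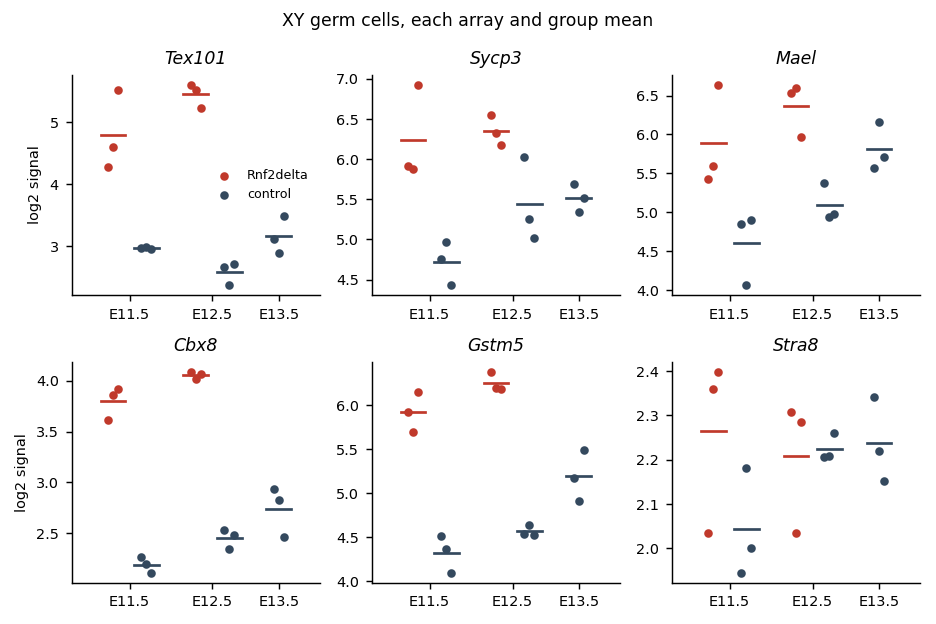
Log2 level on each XY array and the mean of each group (short line) for 6 genes, with Rnf2delta (red) left of control (dark) at the first 2 stages and control alone at E13.5. Tex101, Cbx8 and Gstm5 in E11.5 Rnf2delta cells lie above all control arrays, Mael and Sycp3 overlap or exceed the E13.5 controls, and Stra8 stays between 1.95 and 2.40 throughout.

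Normal development between E12.5 and E13.5 was then read in the control arrays of those stages, which share the fit but not the levels of the E11.5 XY comparison. In XX controls 55 of the 103 risen genes were higher at E13.5 than at E12.5 and 0 were lower (17% of all genes were higher and 4.81% lower), with a median of 0.59 against 0.08 for all genes. In XY controls 12 were higher and 0 lower (0.758% of all genes were higher and 0.343% lower), with a median of 0.28 against 0.01. Uhrf1 and Pmaip1 were among these 12, at 1.14 and 1.18 (limma adjusted p = 0.016 and 0.026). Of the 103 risen genes 80 belonged to none of the lists used here.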

How the data were processed

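Affymetrix arrays measured RNA of sorted mouse germ cells in 10 groups of 3. The authors deposited log2 signals for 34760 probe sets on 30 arrays, made with R 2.15 and affy 1.36, per the submitters' processing notes; how background was corrected, the probe summary and the build behind the probes were not given in the sources used here. Array scan times were not used, so batches of scanning were not tested. Precision is limited by how few arrays there are, and each SE rests on the spread within all 10 groups. The E12.5 XX arrays had mean correlations of 0.9635 to 0.9777 with arrays of their own group. For the E11.5 XY arrays these were 0.9882 to 0.9904. Without the 6 E12.5 XX arrays 228 genes passed, against 109, and the cause was not tested.

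Probe sets with 1 symbol (21640) were named from the platform annotation, with symbols updated through RefSeq (GRCm38.p6, names only; 21553 matched), and the probe set with the highest mean stood for a gene. Genes above the 40th percentile of the array on 3 or more arrays were kept, 15180 of 19937. Limma 3.58.1 (R 4.3.3) fitted 1 mean per group over all 30 arrays with 20 residual degrees of freedom. All tests were two-sided, and p-values were adjusted (Benjamini-Hochberg) across all genes tested, with a threshold of 0.05. An error after ± is the standard error (SE) of the difference, and the fit was tested on simulated data. Single values per array were compared by exact permutation of 3 against 3 arrays.

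The members and gene lists were chosen with earlier results of these data known. Genes named in the text were taken from Rnf2 and Ring1, the 15 largest rises and falls past the threshold without overlap, up to 4 members of each list by p, a fixed set of germ cell genes, the 5 smallest p of each interaction and 15 genes past the threshold in all 3 other comparisons; not all of these are printed, and other names were chosen after their values were seen. Replicate numbers occur in both genotypes, and same-numbered arrays deviated together (r = 0.160, 0.124 and 0.104 across genes, against -0.101 to -0.0191 for other pairs), so a fit with the number as a block was an alternative and is given where it changes a call. Further alternatives were array weights, fewer arrays in the fit, other filters, the mean of probe sets, quantile normalization, another variance prior and leaving out each array.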

Additional observations from a re-analysis of the deposited data

Results flagged for a closer look

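Probe sets without a gene symbol stay outside the gene counts and were tested separately. Of 9784 such probe sets 2 passed, so both show a signal in data that the gene comparisons leave out. Probe set 10339096 had log2 levels of 7.28 to 7.94 in Rnf2delta and 6.0 to 6.54 in control, a difference of 1.35 ± 0.21 (SE; limma adjusted p = 0.0084). Probe set 10517488 had 3.75 to 3.82 in Rnf2delta and 2.74 to 3.02 in control, a difference of 0.93 ± 0.14 (adjusted p = 0.0078). Neither overlapped between the genotypes, and neither is named here.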

How the results depend on the processing

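The count of 109 genes (103 higher, 6 lower) moved under several alternatives. Array weights gave 344 (284 higher, 60 lower), a fit without the 6 E12.5 XX arrays 228 (189 and 39), and the 6 arrays alone 150 (133 and 17). The 6 arrays with a replicate block, added after seeing the data, gave 236 (199 and 37). The replicate block over all arrays gave 98 (91 and 7), and 27 of the 109 genes lost their call under it. Counts under both filters, the mean of probe sets, quantile normalization and the other variance prior were 96 to 111. Leaving out single arrays gave 50 to 99 genes, 47 to 91 higher and 2 to 8 lower. Of the 33 genes past the threshold elsewhere, 17 to 23 passed without 1 array and 25 to 30 otherwise, against 27; of the 26 chosen in the 24 other arrays, an alternative added after seeing the data, 22 passed in the 6 arrays alone. The cause of these moves was not tested. Nanog, at -0.12 in all arrays, ran between -0.32 and 0.029 when 1 array was left out, with the turn in sign without Rnf2delta replicate 3, and Xist, at 0.02 in all arrays, ran between -0.14 and 0.12, below 0 without Rnf2delta replicate 1 or control replicate 1. Of 57 genes named here that did not pass, 25 passed in at least 1 alternative. The small RNA mean differed by -0.33 to -0.23 without 1 array.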
